A study of Arabidopsis thaliana with 116 samples.

Results

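In roots of Arabidopsis thaliana seedlings given salicylic acid (SA), 22 of the 27655 counted genes had less RNA than in control roots 2 h and 4 h after transfer and more RNA than in control roots at 48 h. They were chosen from these values. Counts were summed over the replicate libraries of a group and scaled to CPM (counts scaled so that every group has the same total), and L is the log2 ratio of (SA CPM + 0.5) to (control CPM + 0.5) in root. A member has L of -1 or lower at 2 h and at 4 h, and of 1 or higher at 48 h. The early part of the rule alone was met by 853 genes and the late part alone by 2358 genes. The 22 members encode enzymes of hormone breakdown and conjugation, regulators, membrane transporters, oxidoreductases, transferases and hydrolases, and a few proteins of unknown role.

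The seedlings were wild type of strain Col-0, 5 days old on upright agar plates when they were moved on their nylon mesh to fresh plates with 150 µM SA, with 2 µM abscisic acid (ABA), or with neither. Roots and shoots were parted by 1 cut at harvest, which took place 1, 2, 4, 7, 24 and 48 h after the move, and in controls also at 0 h. No group carries a mutation or a transgene, and the control plants were moved like the treated ones. Each group has 3 libraries, which the submitters call biological replicates, and the 0 h controls have 4 per tissue, so 58 libraries per tissue.

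SA is the phenolic hormone best known from defence against biotrophic pathogens. Its receptors are the NPR proteins, which work with TGA transcription factors at target promoters, and WRKY factors form a further layer of this response. In roots SA is also known to restrain growth and to interact with auxin, whose breakdown, transport and signalling shape the root. ABA is the hormone of drought and salt responses and acts through PYR/PYL receptors, PP2C phosphatases and SnRK2 kinases.

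Root libraries held 5031509 to 102576624 counts, with a median of 29711587, and the 36 SA and control root libraries from 1 h onwards held 9256063 to 96952547. The summed level of 9 shoot marker genes was 37.4 to 257.8 CPM in SA roots and 39.8 to 188.4 CPM in control roots, and at least 23796.5 CPM in SA and control shoots. The summed level of 10 root marker genes was 468.8 to 766.3 CPM in SA roots and 528.7 to 830.1 CPM in control roots. These ranges run over all times. Within each time the root marker sums did not overlap, and SA roots were higher at 1 h and lower at every later time. At 4 h they were 568.4 to 581.9 CPM in SA roots and 679.3 to 711.8 CPM in control roots. At 48 h they were 655.1 to 679.9 and 778.7 to 830.1 CPM. Whether tissue make-up differed was not tested. The highest shoot marker sum among SA roots belonged to 1 library at 4 h, a time the rule used. The other SA roots at 4 h had 37.5 and 44.7 CPM, and the control roots at 4 h 95.3 to 105.2 CPM. Of 22 well-known SA-responsive defence genes, chosen from general knowledge, 13 were higher and 1 lower in SA than in control roots at 1 h, 15 were higher and 3 lower at 7 h, and 16 were higher and 3 lower at 24 h. Of all 21367 root genes tested, 22.7% were higher and 22.5% lower at 1 h, and 27.9% and 30.4% at 7 h. At 24 h, 32.1% were higher and 32.9% lower. Each gene list below is to be read beside these shares, and a count near them is no result about the list.

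At the times that chose them, the members spanned a wide range, and these values are given as a description only. LAC7 had the lowest L at 4 h, -4.01, after -2.60 at 2 h, and it stood at 1.66 at 48 h. FRO5 had the highest L at 48 h, 4.21, after -1.06 at 2 h and -1.29 at 4 h. AT4G39675 followed at 48 h with 3.41. Some members lay close to the thresholds. PHT1;9 was just inside at 2 h with L of -1.013, and UMAMIT20, which met the other conditions, was just outside with -0.88. SNRK2.9 was just inside at 4 h with -1.016 and AT4G34380 just outside with -0.98. RD26 was just inside at 48 h with 1.09 and AT5G03230 just outside with 0.94.

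**Figure D1:**
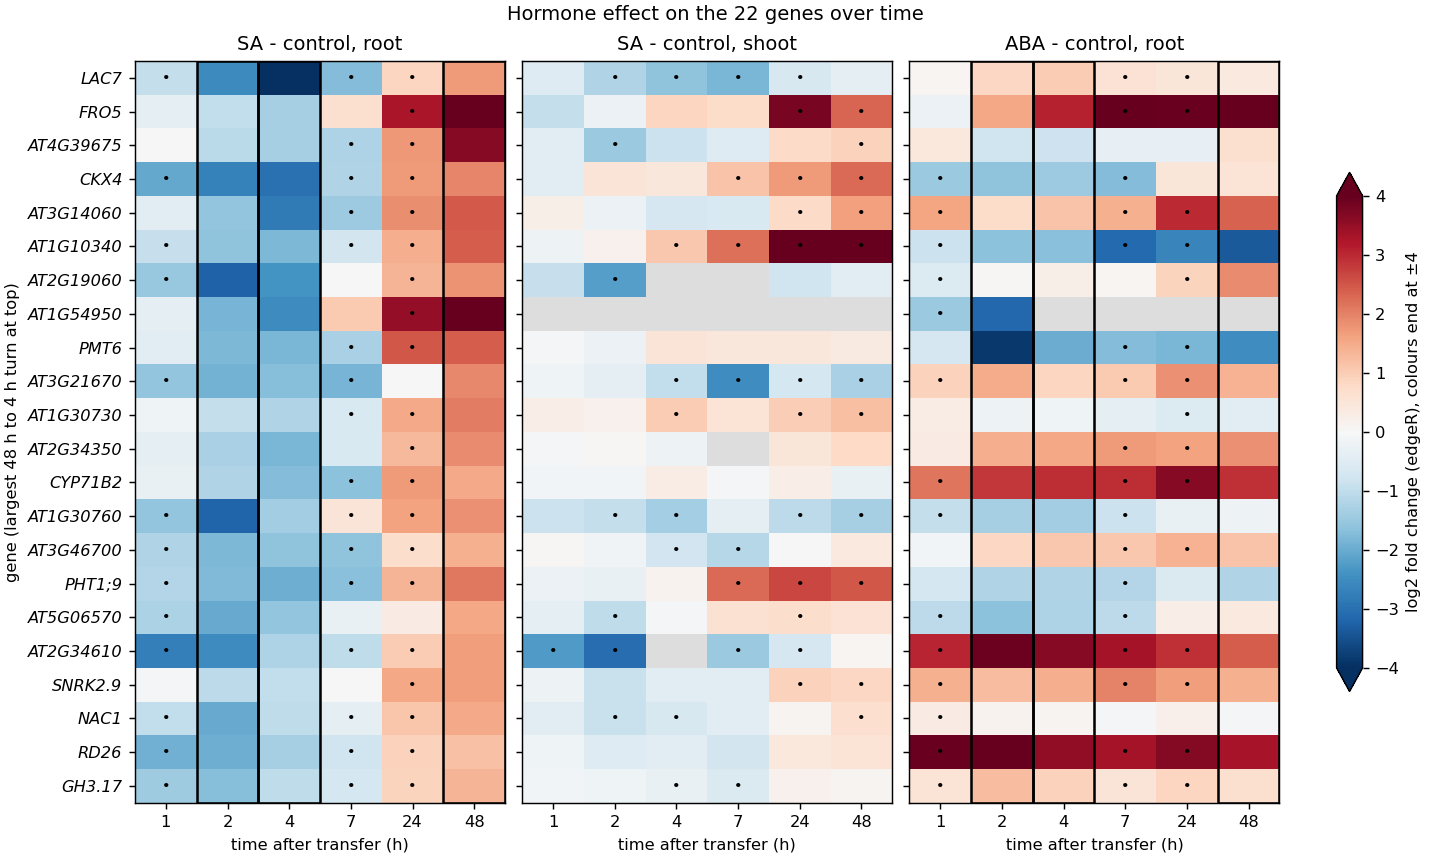
Log2 fold changes (edgeR) of the 22 genes for SA against control in root and in shoot and for ABA against control in root, by hours after transfer, with genes ordered by the difference of L between 48 h and 4 h. Boxes mark the times at which the root controls took part in choosing the genes, dots mark adjusted p under 0.05 at the other times, and grey marks genes not tested or groups in which every library held at most 3 counts. In SA roots the column for 7 h is mostly blue (15 genes lower) and the column for 24 h mostly red (20 genes higher). Over all genes, 30.4% were lower at 7 h and 32.1% higher at 24 h.

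The start regions of the members are shown because genes that move together may share short elements there, and because the elements bound by WRKY and TGA factors are the ones tied to SA. For each gene, 250 bases before and 50 bases after the annotated start (RefSeq, assembly TAIR10.1, gene strand) were searched for 7 elements and for their reverse complements. TTGAC, the core of the W-box bound by WRKY factors, was found in 15 of 22 members, or 68.2%, and in 50.5% of all 27443 such regions. TGACG, the core bound by TGA factors, was found in 5 members, or 22.7%, against 23.1% of all. ACGTG, the core of the ABA-responsive element, was found in 9 members, or 40.9%, against 26.7% of all, and the G-box CACGTG, which holds this core on both strands, in 2 members, or 9.1%, against 7.7%. AAATATCT, the evening element, was found in 2 members, or 9.1%, against 5.6% of all. GCCGCC was found in 1 member, or 4.5%, against 2.6%, and TATCCA, a sugar-response element, in 5 members, or 22.7%, against 16.1%. A match is a run of letters and not a shown binding site. Below are the start regions of 3 members with 3 W-box cores each and of FRO5, which had none, written 5′ to 3′ with every match to one of the 7 elements in capitals. They lie at chr4:14565933-14566232 on the plus strand for CKX4, and on the minus strand at chr4:17289679-17289978 for PMT6, chr3:17202025-17202324 for AT3G46700 and chr5:8108593-8108892 for FRO5.
CKX4: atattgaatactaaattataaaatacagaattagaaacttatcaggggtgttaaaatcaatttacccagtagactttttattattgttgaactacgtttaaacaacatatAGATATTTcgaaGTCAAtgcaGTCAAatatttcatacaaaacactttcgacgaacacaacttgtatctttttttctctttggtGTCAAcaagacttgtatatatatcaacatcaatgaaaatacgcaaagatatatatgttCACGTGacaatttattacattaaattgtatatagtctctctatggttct
PMT6: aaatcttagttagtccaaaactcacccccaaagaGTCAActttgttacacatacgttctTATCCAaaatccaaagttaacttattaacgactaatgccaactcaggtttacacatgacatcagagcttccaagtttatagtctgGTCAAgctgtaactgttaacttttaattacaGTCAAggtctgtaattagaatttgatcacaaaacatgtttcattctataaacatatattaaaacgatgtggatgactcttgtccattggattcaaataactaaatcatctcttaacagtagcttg
AT3G46700: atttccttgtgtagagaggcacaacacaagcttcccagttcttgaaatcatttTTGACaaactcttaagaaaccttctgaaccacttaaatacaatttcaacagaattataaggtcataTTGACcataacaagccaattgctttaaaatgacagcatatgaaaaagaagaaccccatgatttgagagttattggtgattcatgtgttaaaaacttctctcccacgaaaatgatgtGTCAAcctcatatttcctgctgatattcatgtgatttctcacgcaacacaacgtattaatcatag
FRO5: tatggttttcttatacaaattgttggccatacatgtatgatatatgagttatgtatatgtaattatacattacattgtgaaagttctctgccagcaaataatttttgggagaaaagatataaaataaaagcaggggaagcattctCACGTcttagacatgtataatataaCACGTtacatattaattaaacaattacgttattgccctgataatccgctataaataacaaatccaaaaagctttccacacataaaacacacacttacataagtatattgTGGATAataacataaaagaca

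The libraries of 1, 7 and 24 h had no part in choosing the genes, and there the SA effect was tested with edgeR over all 21367 root genes that passed the filter on low counts, among them all 22 members. At 1 h, 13 members were lower in SA roots and 0 higher, where 22.5% of all genes were lower and 22.7% higher; the 9 others did not pass the test, and their log2 fold changes were all below 0 too. At 7 h, 15 members were lower and 1 was higher, against 30.4% and 27.9% of all genes. At 24 h, 20 members were higher and 0 lower, against 32.1% and 32.9% of all genes. The median log2 fold change of the members was -0.96 at 1 h, -0.78 at 7 h and 1.4 at 24 h, beside medians over all genes of 0.004, -0.032 and -0.008. In whole-tissue RNA, fewer cells of a type and less RNA per cell cannot be told apart.

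The SA effect was thus mostly negative at 7 h and mostly positive at 24 h, and the step between these times was tested in the same fit as a contrast of contrasts. The effect was more positive at 24 h than at 7 h in 21 of 22 members and more negative in 0, where 18.1% of all genes were more positive and 18.5% more negative. The step had a median of 2.16 on the log2 scale, from 0.60 for AT5G06570, the member that did not pass, to 3.78 for PMT6. Of the 15 members lower at 7 h, 14 were higher at 24 h and 1, AT3G21670, was not called at 24 h. AT1G30760 was higher at both times. Of the 6 members not called at 7 h, 5 were higher at 24 h (AT1G54950, AT2G19060, SNRK2.9, AT2G34350 and FRO5), and AT5G06570 was called at neither time.

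At 24 h, SA replicates 2 and 3 carry another library-name prefix than SA replicate 1 and the controls. With replicate 1 as the lone SA library, and its spread taken from the other root groups, 20 members were again higher and 0 lower. Some calls at 7 h rested on single replicates. Without replicate 2 of every group, the test was no longer passed by AT1G30730 (log2 fold change -0.41, adjusted p = 0.302), NAC1 (-0.35, adjusted p = 0.144), AT4G39675 (-0.91, adjusted p = 0.0582), AT1G10340 (-0.60, adjusted p = 0.145) and AT1G30760 (0.45, adjusted p = 0.153). Without replicate 3, the same held for PMT6 (-0.90, adjusted p = 0.138), AT1G10340 (-0.75, adjusted p = 0.0889) and AT1G30760 (0.46, adjusted p = 0.055). With SA replicate 3 alone left out, 2 members were higher at 7 h. AT1G10340 also missed the threshold with DESeq2 (adjusted p = 0.0635). At 24 h, the alternatives run ended no call among the 20 members.

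**Figure D2:**
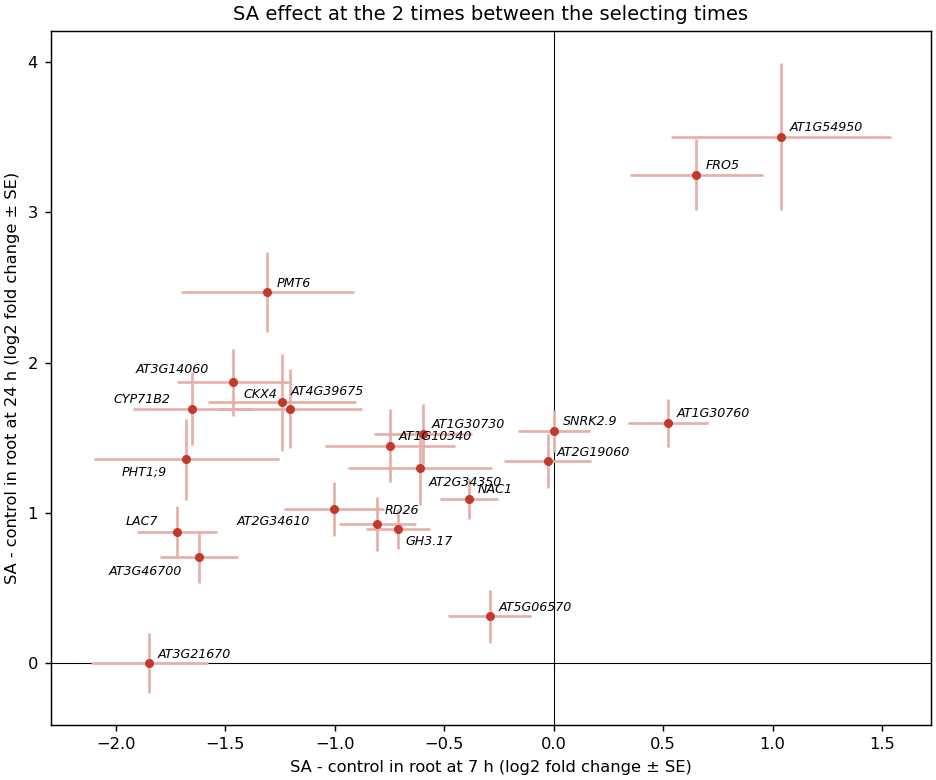
SA effect in root at 7 h (horizontal axis) and at 24 h (vertical axis) for the 22 genes, as log2 fold change ± SE from edgeR with 3 SA and 3 control libraries per time. All points lie above 0 at 24 h, and 18 lie left of 0 at 7 h; PMT6 and FRO5 lie highest apart from the low-count gene AT1G54950.

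Among the genes of hormone turnover, CKX4 encodes a cytokinin oxidase, which degrades cytokinins. Its level in SA roots was 1.39, 0.858 and 0.851 CPM at 1 h, against 3.9, 5.56 and 3.81 CPM in control roots. At 7 h it was 1.65, 1.45 and 1.52 CPM in SA roots and 3.06, 4.08 and 3.56 CPM in control roots, and at 24 h 13.3, 13.8 and 12.4 CPM in SA roots and 4.22, 3.65 and 4.3 CPM in control roots. The SA libraries lay below every control library at 1 h and 7 h and above every control library at 24 h. The log2 fold change was -2.05 ± 0.33 at 1 h (adjusted p = 1.67e-06), -1.2 ± 0.33 at 7 h (adjusted p = 0.00167) and 1.69 ± 0.26 at 24 h (adjusted p = 2.51e-07; SE, edgeR). Of 25 listed cytokinin genes, CKX4 included, 9 were lower and 5 higher at 1 h, 7 lower and 5 higher at 7 h, and 10 lower and 6 higher at 24 h. Of the 6 other oxidases of the list, CKX2 was not called at 1 h or 7 h, with log2 fold changes of -1.002 and 0.27, and was higher at 24 h like CKX4, with 1.77 (adjusted p = 9.15e-06). CKX1 was lower at all 3 times, with log2 fold changes of -3.11, -4.16 and -4.16 at 1, 7 and 24 h, and CKX6 was lower at all 3, with -0.49, -0.93 and -3.12. CKX5 was higher at all 3, with 0.77, 0.52 and 0.77. CKX3 was called at 7 h alone, as higher with 0.82, and CKX7 at 24 h alone, as lower with -1.69.

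GH3.17 encodes an enzyme that joins auxin to an amino acid and so takes it out of the active pool. It was measured at 12.7, 12.6 and 10.2 CPM in SA roots and 30.0, 36.6 and 28.8 CPM in control roots at 1 h. The corresponding values at 7 h were 15, 13.6 and 15.8 CPM in SA roots and 22.1, 26.3 and 24.5 CPM in control roots, and at 24 h 78.3, 74.3 and 77.4 CPM in SA roots and 39.7, 37.9 and 46 CPM in control roots. Groups did not overlap at any of these times: SA roots were low at 1 h and 7 h and high at 24 h. Log2 fold changes were -1.42 ± 0.15, -0.71 ± 0.15 and 0.89 ± 0.13 at 1, 7 and 24 h, with adjusted p of 3.7e-11, 5.46e-05 and 1.38e-07. Of 29 listed genes of auxin transport, repression and conjugation, a list that does not hold GH3.17, 11 were higher and 4 lower at 1 h, 9 higher and 10 lower at 7 h, and 5 higher and 14 lower at 24 h.

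The regulators are NAC1 and RD26, transcription factors of the NAC family, and the kinase SNRK2.9. NAC1 is known from auxin signalling in lateral root formation. At 7 h it had 38.6, 38.9 and 42.2 CPM in SA roots and 46.6, 52.2 and 57.6 CPM in control roots, and at 24 h 59.2, 61.4 and 63.3 CPM in SA roots and 27.5, 25.7 and 32.7 CPM in control roots. SA roots were below all controls at 7 h and above all of them at 24 h, with log2 fold changes of -0.39 ± 0.13 (adjusted p = 0.0107) and 1.09 ± 0.13 (adjusted p = 9.62e-10). RD26, a factor known from drought and ABA responses, was low in SA roots as early as 1 h, at 11, 9.44 and 11.9 CPM, against 38.7, 41.2 and 43.8 CPM in control roots (log2 fold change -1.93 ± 0.19, adjusted p = 7.54e-12). At 24 h RD26 stood at 37.3, 32 and 37.5 CPM in SA roots and 17.5, 16.2 and 22.3 CPM in control roots, a log2 fold change of 0.92 ± 0.18 (adjusted p = 1.61e-05). At 7 h RD26 had 27.3, 29.3 and 27.1 CPM in SA roots, so its SA level rose little from 7 h to 24 h. The control level of RD26 itself was lower at 24 h than at 7 h, as given below.

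SNRK2.9 belongs to the SnRK2 kinases, whose best-known members act in ABA and osmotic-stress signalling. It was not called at 1 h, with a log2 fold change of -0.075 ± 0.15, nor at 7 h, when it had 9.77, 8.3 and 10.8 CPM in SA roots and 10.1, 9.51 and 9.16 CPM in control roots, groups that overlap. At 24 h it had 53.7, 60.1 and 67.5 CPM in SA roots and 18.6, 21 and 22.5 CPM in control roots (log2 fold change 1.55 ± 0.14, adjusted p = 3.84e-13). All SA libraries were then above all controls.

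**Figure D3:**
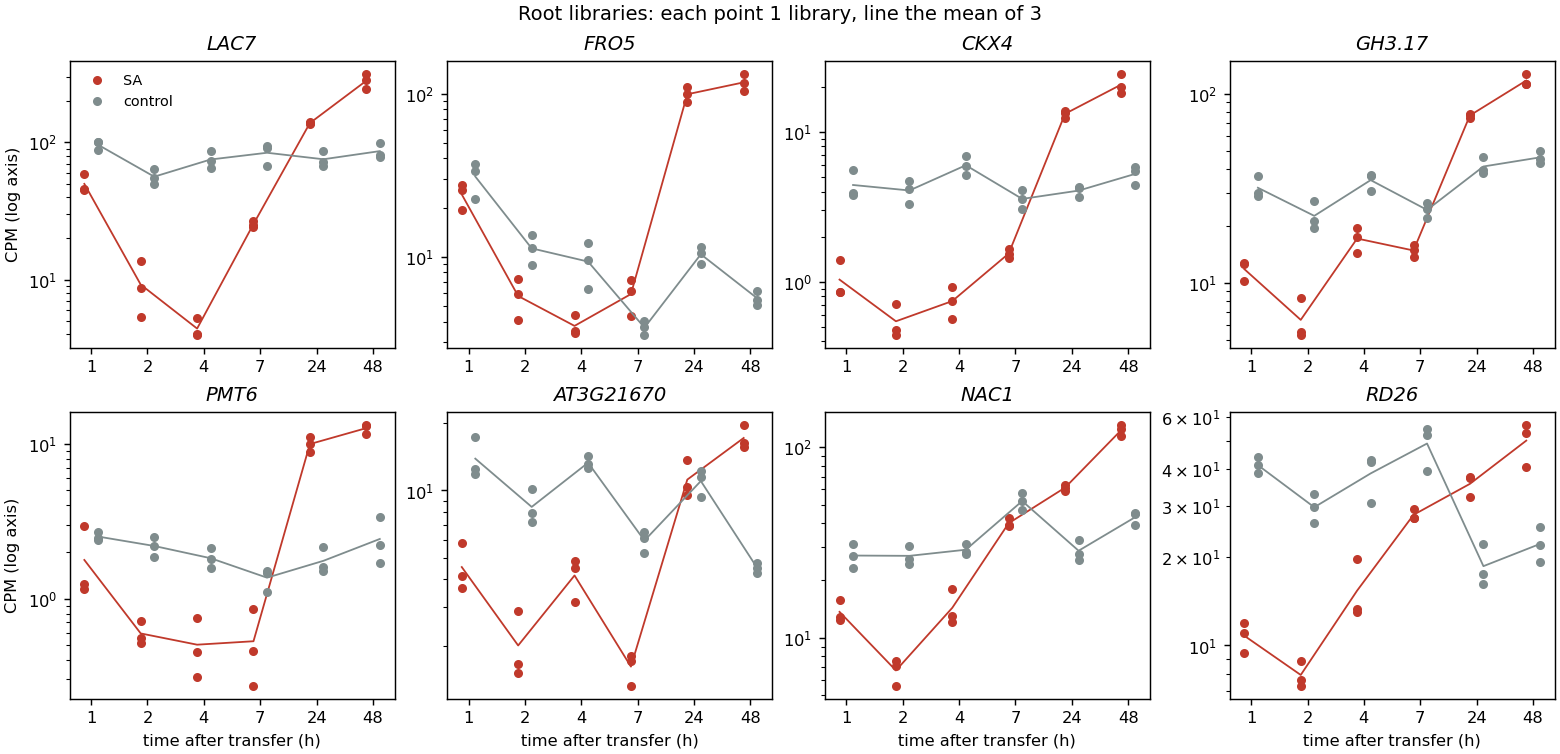
Levels of 8 members in root in CPM (log axis) by hours after transfer, each point 1 library and each line the mean of 3, with the times evenly spaced, SA in red and control in grey. In each panel the SA points lie below the control points at 2 h and 4 h and above them at 48 h, the times that chose the genes, and the lines cross between 4 h and 48 h.

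Of the 4 members annotated as transporters, PMT6, a polyol and monosaccharide transporter, had the widest step from 7 h to 24 h, 3.78 ± 0.47 on the log2 scale (adjusted p = 2e-08). Its levels at 7 h were 0.459, 0.857 and 0.273 CPM in SA roots and 1.11, 1.52 and 1.47 CPM in control roots. At 24 h they were 9.94, 11.1 and 8.85 CPM in SA roots and 1.59, 1.51 and 2.16 CPM in control roots. SA roots were below all controls at 7 h and above all of them at 24 h. PHT1;9, a phosphate transporter, was measured at 0.459, 0.362 and 0.117 CPM in SA roots and 1.07, 1.05 and 0.909 CPM in control roots at 7 h, and at 4.76, 3.92 and 4.67 CPM in SA roots and 1.53, 1.65 and 1.97 CPM in control roots at 24 h. Again the groups did not overlap at either time, and the log2 fold changes were -1.68 ± 0.42 (adjusted p = 0.000698) and 1.36 ± 0.27 (adjusted p = 2.24e-05). Of 20 tested genes listed for phosphate starvation, PHT1;9 included, 10 were lower and 4 higher at 1 h, 11 lower and 2 higher at 7 h, and 9 lower and 4 higher at 24 h. The phosphate transporter PHT1;4 was lower at all 3 times, with log2 fold changes of -1.92, -0.50 and -1.67.

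AT3G21670, a transporter of the major facilitator superfamily from the nitrate and peptide transporter family, came late. At 7 h it had 1.33, 1.81 and 1.72 CPM in SA roots and 6.49, 6.13 and 5.27 CPM in control roots (log2 fold change -1.85 ± 0.27, adjusted p = 8.47e-08). At 24 h it had 13.7, 9.54 and 10.3 CPM in SA roots and 11.5, 9.34 and 12.2 CPM in control roots. These groups overlap, and the log2 fold change was 0.001 ± 0.20 (adjusted p = 0.999), so that the higher level at 48 h, which the rule requires, was not yet seen at 24 h. Of 21 listed genes of nitrate uptake and assimilation, a list without this gene, 10 were lower and 4 higher at 1 h, 3 lower and 13 higher at 7 h, and 9 lower and 8 higher at 24 h. The fourth transporter, AT2G34350, annotated as nodulin-like, was not called at 1 h or 7 h and was higher at 24 h, by 1.3 ± 0.25 on the log2 scale (adjusted p = 1.15e-05).

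The oxidoreductases hold the members with the widest swing over the selecting times. LAC7 encodes a laccase, a copper enzyme of the family that polymerises phenolics such as lignin precursors. It was measured at 58.6, 44.8 and 45.9 CPM in SA roots and 87.9, 99.7 and 100.4 CPM in control roots at 1 h. At 4 h its levels were 4.0, 3.98 and 5.24 CPM in SA roots and 64.7, 86.5 and 73.5 CPM in control roots, and at 48 h 284, 313 and 243 CPM in SA roots and 77.8, 99.5 and 81.1 CPM in control roots. In the times between, it had 24.2, 26.9 and 25.1 CPM in SA roots and 67, 90.1 and 94.3 CPM in control roots at 7 h, and 139.6, 139 and 135 CPM in SA roots and 72.1, 66.9 and 86.5 CPM in control roots at 24 h. The groups did not overlap at 1, 7 or 24 h. Tested at those times, the log2 fold change was -0.94 ± 0.17 (adjusted p = 1.52e-05), -1.72 ± 0.18 (adjusted p = 3.38e-11) and 0.87 ± 0.17 (adjusted p = 2.09e-05). Of 28 listed lignin and secondary wall genes, a list without LAC7, 14 were lower and 0 higher at 1 h, 12 lower and 4 higher at 7 h, and 14 lower and 6 higher at 24 h. The 3 laccases of that list were lower at 24 h, IRX12 with a log2 fold change of -1.16, LAC11 with -0.76 and LAC17 with -1.15.

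FRO5 encodes a reductase of ferric or cupric ions at the root surface. It was not called at 1 h or at 7 h, when its levels were 7.16, 4.35 and 6.17 CPM in SA roots and 3.32, 3.68 and 4.01 CPM in control roots (log2 fold change 0.65 ± 0.30, adjusted p = 0.0629). At 24 h it had 98.7, 88.2 and 109.9 CPM in SA roots and 10.6, 8.99 and 11.4 CPM in control roots, a log2 fold change of 3.25 ± 0.23 (adjusted p = 1.97e-16). At 7 h every SA library was above every control library although the test was not passed, and at 24 h the gap was wide. FRO5 has a near copy, FRO4, with 718 aligned bases at 91.9% identity and shorter stretches at up to 95.9%, so reads could be split between them in ways the sources used here do not state. FRO4 was lower in SA roots at 1, 7 and 24 h, with log2 fold changes of -0.90, -1.24 and -0.71 (adjusted p = 0.000943, 0.000158 and 0.00585). Of 22 listed iron-deficiency genes, a list without FRO5, 7 were lower and 4 higher at 1 h, 8 lower and 6 higher at 7 h, and 10 lower and 4 higher at 24 h.

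The cytochrome P450 CYP71B2 was lower at 7 h and higher at 24 h, with 2.89, 3.16 and 4.29 CPM in SA roots and 6.93, 12.3 and 13.2 CPM in control roots at 7 h and 17.7, 15.9 and 15.9 CPM in SA roots and 3.83, 3.72 and 7.1 CPM in control roots at 24 h. Its groups did not overlap at either time, and its log2 fold changes were -1.65 ± 0.27 and 1.69 ± 0.24 (adjusted p = 1.27e-06 and 4.92e-08). AT1G30760 and AT1G30730 encode FAD-dependent oxidases of the berberine bridge enzyme type. AT1G30760 was the 1 member called higher at 7 h. It had 5.37, 3.27 and 2.52 CPM in SA roots and 9.72, 14.4 and 10.6 CPM in control roots at 1 h, and 8.9, 11.4 and 10.9 CPM in SA roots and 7.78, 7.0 and 6.99 CPM in control roots at 7 h. Its log2 fold change was -1.59 ± 0.19 at 1 h, 0.52 ± 0.18 at 7 h and 1.6 ± 0.16 at 24 h (adjusted p = 2.39e-09, 0.0128 and 4.95e-12). AT1G30730 was not called at 1 h, was lower at 7 h with -0.60 ± 0.23 and higher at 24 h with 1.53 ± 0.20 (adjusted p = 0.0208 and 5.15e-09).

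The transferases and hydrolases are the UDP-glycosyltransferase AT3G46700, the SGNH-type esterase AT2G19060 and the alpha/beta-hydrolase AT5G06570. AT3G46700 had 25.7, 23.6 and 22.7 CPM in SA roots and 73.9, 74.7 and 72.8 CPM in control roots at 7 h, and 76.5, 65.6 and 71.9 CPM in SA roots and 46.5, 39.2 and 45.2 CPM in control roots at 24 h. SA libraries were below all controls at 7 h and above them at 24 h, with log2 fold changes of -1.62 ± 0.18 and 0.71 ± 0.17 (adjusted p = 9.97e-11 and 0.000355). AT2G19060 was lower at 1 h with a log2 fold change of -1.53, was not called at 7 h with -0.027, and was higher at 24 h with 1.35. AT5G06570 was lower at 1 h with -1.27 and passed the test neither at 7 h nor at 24 h, when it had 9.58, 12 and 13.7 CPM in SA roots and 8.99, 8.64 and 10.9 CPM in control roots, groups that overlap.

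Among the other members, AT1G10340 encodes an ankyrin repeat protein, AT2G34610 a protein annotated as a cotton fiber protein, and AT3G14060, AT4G39675 and AT1G54950 uncharacterised proteins. The first 4 were lower at 7 h and higher at 24 h. AT3G14060 had log2 fold changes of -1.46 ± 0.26 and 1.87 ± 0.22 at 7 h and 24 h (adjusted p = 3.35e-06 and 5.11e-10), and AT4G39675 -1.24 ± 0.34 and 1.74 ± 0.33 (adjusted p = 0.00167 and 8.82e-06). AT2G34610 had the lowest log2 fold change of the members at 1 h, -2.75 ± 0.31. Its levels then were 0.627, 0.49 and 0.426 CPM in SA roots and 3.48, 3.18 and 4.05 CPM in control roots, with no overlap. AT1G54950 was a low-count gene, with 1.73, 1.84 and 1.38 CPM in SA roots and 0.0325, 0.211 and 0.166 CPM in control roots at 24 h. At 7 h it had 0.55, 1.09 and 0.273 CPM in SA roots and 0.332, 0.233 and 0.349 CPM in control roots, groups that overlap, and it was not called.

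The genes most like the members in sequence were followed too, as the 19 counted genes with exonic stretches of 100 bases or more at 80% identity or more to a member. They are relatives of 12 members, and 18 of them passed the filter. Of these 18, 2 were higher and 6 lower at 1 h, 3 higher and 7 lower at 7 h, and 6 higher and 5 lower at 24 h. Over all genes the shares were 22.7% higher and 22.5% lower at 1 h, and 27.9% and 30.4% at 7 h. They were 32.1% and 32.9% at 24 h, near those of the relatives. AT1G30720, the relative of AT1G30730 with 1590 aligned bases at 85.3% identity, was lower at 7 h (-0.79, adjusted p = 0.00768) and higher at 24 h (0.47, adjusted p = 0.0445). AT2G24600, the relative of AT1G10340, was higher at 1, 7 and 24 h, with log2 fold changes of 2.04, 5.42 and 4.17. NAC1 shares 148 exonic bases with AT1G56000 on the opposite strand and AT2G19060 shares 508 with AT2G19070, also on the opposite strand. NAC1 also shares 809 exonic bases with AT1G08087, a long non-coding RNA gene on the opposite strand. AT1G08087 was not among the counted genes, so its level could not be followed. Whether the counting used the strand is not given in the sources used here, so reads of such pairs may not be told apart. AT1G56000 was not called at 7 h or 24 h, and AT2G19070 had too few counts to be tested.

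The control level of members also differed between 7 h and 24 h, in numbers near the shares of all genes. Control roots at 7 h against control roots at 24 h gave 6 members higher and 8 lower at 7 h, where 30.8% of all genes were higher and 31.2% lower. RD26 was higher at 7 h, with 39.3, 54.9 and 52.4 CPM against 17.5, 16.2 and 22.3 CPM at 24 h, a log2 fold change of 1.38 ± 0.18 (adjusted p = 5.83e-09). FRO5 was lower at 7 h, with 3.32, 3.68 and 4.01 CPM against 10.6, 8.99 and 11.4 CPM at 24 h (-1.49 ± 0.28, adjusted p = 1.01e-05). LAC7 and CKX4 were not called in this comparison. In the 4 control roots at 0 h, LAC7 had 164, 120.0, 149.7 and 134 CPM and FRO5 64.4, 56.2, 73.5 and 74.2 CPM.

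In shoots, 21 members passed the filter and the course was seen for few of them. SA shoots had 0 members higher and 1 lower than control shoots at 1 h, where 0.578% of all 21263 tested genes were higher and 0.277% lower, and 0 higher and 7 lower at 2 h, against 5.31% and 1.97%. At 4 h, 2 were higher and 8 lower, against 14% and 8.83% of all genes, and at 7 h 3 were higher and 6 lower, against 20% and 17.7%. At 24 h, 8 were higher and 4 lower, against 29.3% and 30.4% of all genes, and at 48 h 9 were higher and 2 lower, against 32% and 32.9%. These counts moved with single replicates. Without replicate 2 of every group, 2 members were lower at 2 h, 0 were higher and 3 lower at 4 h, and 4 were higher and 2 lower at 24 h. Without replicate 3, 1 was lower at 2 h, 1 was higher and 5 were lower at 4 h, 1 was higher at 7 h and 2 were lower at 24 h. Without replicate 1, 5 were higher at 7 h. One control shoot at 7 h, replicate 1, held 46189 counts; without it, 3 members were higher and 6 lower. At 2 h the SA and control shoots carry different library-name prefixes, so prefix and SA cannot be told apart there. The early lower levels in shoot included AT2G34610, which had 0.101, 0.105 and 0.0865 CPM in SA shoots and 0.933, 0.912 and 0.573 CPM in control shoots at 2 h (-3.04 ± 0.25, adjusted p = 8.58e-13).

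The SA effect was then compared between root and shoot in 1 fit to the libraries of both tissues, at the times the rule did not use. Root and shoot libraries of equal number may come from the same seedlings, but this fit took them as independent. Pairing between the tissues was not checked. At 7 h it was more positive in root for 1 member and more negative for 4, where 12.5% and 10.9% of all genes were so. At 24 h it was more positive in root for 11 members and more negative for 1, against 24.9% and 17% of all genes. With any 1 replicate left out, the members with a more positive effect in root at 7 h were 0, and without replicate 1 those with a more negative one at 24 h were 2. LAC7 is one of the 11. At 24 h it had 16.3, 17.9 and 14.3 CPM in SA shoots and 25.1, 21.1 and 29.9 CPM in control shoots, with all SA shoots below all controls (-0.64 ± 0.24, adjusted p = 0.0203), and the root effect minus the shoot effect was 1.63 ± 0.31 on the log2 scale (adjusted p = 7.41e-06). AT1G30760, PMT6 and AT2G34610 also belong to the 11, with differences of 2.73 ± 0.34, 2.12 ± 0.47 and 1.86 ± 0.36.

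AT1G10340, the ankyrin repeat gene, was the member whose SA effect was more negative in root at 24 h. It had 61, 83.1 and 83.4 CPM in SA shoots and 2.4, 2.93 and 2.71 CPM in control shoots at 24 h (4.81 ± 0.29, adjusted p = 5.7e-19), a wide gap. In shoot it was already higher at 4 h (1.08 ± 0.25) and 7 h (2.2 ± 0.31), with no lower phase called. CKX4 had 17.8, 18.4 and 17.9 CPM in SA shoots and 5.0, 5.88 and 5.7 CPM in control shoots at 24 h, and the difference between root and shoot was 0.12 ± 0.34 (adjusted p = 0.824). At 7 h that difference was -2.23 ± 0.43 for CKX4 (adjusted p = 3.29e-05), and CKX4 was lower in SA roots and higher in SA shoots (1.13 ± 0.25). PHT1;9 showed the same pair of directions at 7 h, with a difference of -3.82 ± 0.76 (adjusted p = 5.51e-05). Its counts were low, with 10, 11 and 11 in the SA shoots and 10, 11 and 3 in the SA roots at 7 h. FRO5 was higher in both tissues at 24 h, with 4.12, 2.98 and 2.81 CPM in SA shoots and 0.20, 0.295 and 0.18 CPM in control shoots, and its difference between tissues was -0.42 ± 0.52 (adjusted p = 0.551).

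**Figure D4:**
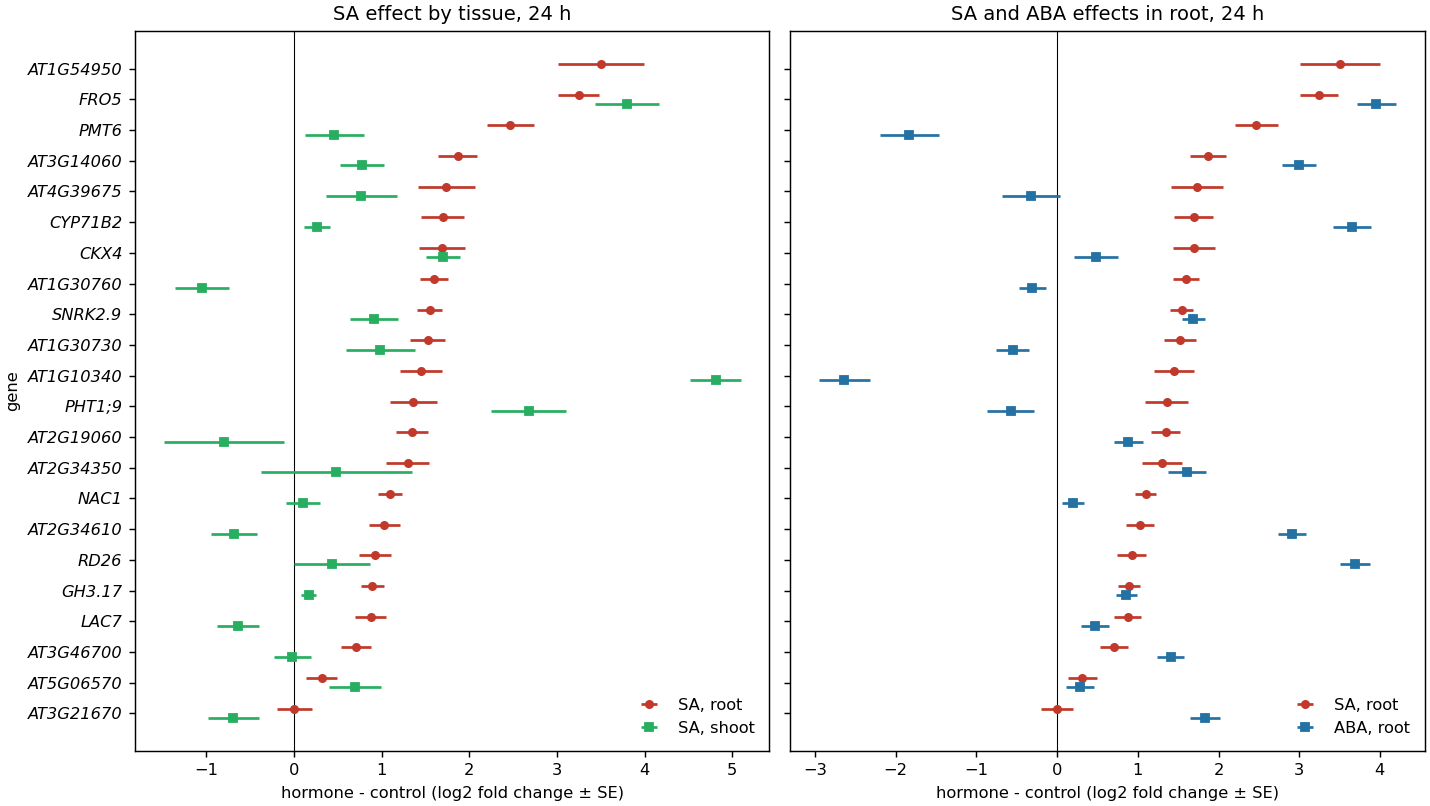
Log2 fold changes at 24 h ± SE (edgeR) of the members, SA in root (red circles) beside SA in shoot (green squares, left) and beside ABA in root (blue squares, right), with genes ordered by the SA effect in root. Genes not tested, or with at most 3 counts in every hormone or every control library, have no square. In shoot, 8 members were higher and 4 lower, against 29.3% and 30.4% of all genes. With ABA in root, 12 were higher and 4 lower, against 21.1% and 18.3% of all genes. The 4 lower ones were AT1G10340, PMT6, AT1G30730 and the low-count gene AT1G54950.

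ABA gave no direction common to all members in root. The comparisons with ABA at 1, 7 and 24 h use the same control libraries as those with SA. At 1 h, 8 members were higher and 6 lower in ABA than in control roots, against 20.9% and 19.6% of all genes. At 7 h, 11 were higher and 7 lower, against 24.7% and 26.3% of all genes, and at 24 h, 12 were higher and 4 lower, against 21.1% and 18.3%. The higher counts were above the shares of all genes at each time, and the lower count at 24 h was near its share. Without replicate 2, 3 members were lower at 1 h, and without replicate 2 or replicate 3, 2 were lower at 24 h. RD26, long used as an ABA-responsive gene, had 698, 632 and 605 CPM in ABA roots at 1 h and 38.7, 41.2 and 43.8 CPM in control roots (3.97 ± 0.19, adjusted p = 4.6e-23). FRO5 had 51.9, 62 and 66.8 CPM in ABA roots at 7 h and 3.32, 3.68 and 4.01 CPM in control roots (4.03 ± 0.27, adjusted p = 1.71e-17). AT2G34610 and CYP71B2 were also higher with ABA at 1, 7 and 24 h, with log2 fold changes of 3.05, 3.31 and 2.91 for AT2G34610 and 2.13, 2.95 and 3.65 for CYP71B2.

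Other members fell with ABA. AT1G10340 had 0.773, 1.28 and 1.26 CPM in ABA roots at 24 h and 7.24, 6.81 and 6.47 CPM in control roots (-2.64 ± 0.32, adjusted p = 1.47e-09). PMT6 had 0.433, 0.466 and 0.597 CPM in ABA roots and 1.59, 1.51 and 2.16 CPM in control roots (-1.83 ± 0.36, adjusted p = 5.1e-05). AT1G54950 had 0 counts in all 3 ABA roots at 7 h; with a floor of 3 counts per library it was at least 3.37-fold lower than in control roots, which averaged 0.305 CPM. At 24 h, when it was called lower, its ABA roots held at most 1 count. With the same floor it was then at least 1.348-fold lower than in control roots, which averaged 0.136 CPM.

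The 2 hormones were also compared directly, at the times the rule did not use. At 7 h, 13 members were lower and 4 higher in SA than in ABA roots, against 32.6% and 30.5% of all genes. At 24 h, 11 were higher and 7 lower, against 30.5% and 34.1% of all genes. RD26 was lower with SA than with ABA at both times, with log2 fold changes of -4.14 ± 0.19 at 7 h and -2.76 ± 0.18 at 24 h (adjusted p = 5.09e-24 and 2.74e-18). LAC7 was lower with SA than with ABA at 7 h (-2.3 ± 0.18) and higher at 24 h (0.40 ± 0.17; adjusted p = 2.86e-15 and 0.0361). PMT6 was not called at 7 h and was higher with SA at 24 h (4.3 ± 0.33, adjusted p = 7.11e-16). At 4 h and 48 h, where the controls took part in choosing the genes, LAC7 levels in ABA roots were 124, 175 and 159 CPM at 4 h and 132, 96.6 and 113 CPM at 48 h.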

How the data were processed

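The authors deposited unnormalised read counts for each gene, made with HISAT2 and featureCounts on the TAIR10 build, per the submitters' processing notes; the settings for strand and for reads with several matches are not given in the sources used here. Per the labels' protocols, libraries were stranded poly(A) libraries read as pairs of 150 bases. Groups, times and replicate numbers come from the labels, and 0 columns of values were left unused. The members, the role classes and the gene lists were chosen with earlier results of these data known.

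CPM in the rule are counts over plain group totals. All other CPM are scaled with TMM factors and given per library. Fold changes, standard errors and p-values come from edgeR 4.0.16 in R 4.3.3 (filterByExpr on groups, TMM, quasi-likelihood F-tests, group-means model over the 58 root libraries, the 58 shoot libraries, or both). P-values were adjusted by Benjamini-Hochberg over all genes tested in a comparison, at a threshold of 0.05, and standard errors follow from the fold change and its F statistic. The test was also run on simulated counts with few changed genes and with spread taken from a smooth trend. That run does not show how the test behaves on these data. Every member is named. Symbols and start regions are from RefSeq, assembly TAIR10.1, which matched 27445 of 27655 identifiers, and relatives were searched with BLAST 2.17.0.

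Alternatives were DESeq2 1.42.0, its size factors, no filter, single replicates or libraries left out, only the groups compared, a replicate block, and other settings of the rule. The single root libraries and the shallow shoot library left out were chosen after seeing the data. To see whether replicate numbers pair libraries, deviations from group means were correlated between SA and control libraries of equal number. In root the 18 correlations ran from -0.242 to 0.345, with a median of 0.0155, and at 0 of 6 times were all 3 above 0.1, so the numbers were not taken to pair SA and control roots. Between ABA and control roots all 3 were above 0.1 at 24 h alone (0.262, 0.184 and 0.295), and the block left the counts there at 12 members higher and 4 lower. In shoot all 3 were above 0.1 at 5 times, the exception being 7 h. At 7 h 1 control shoot held 46189 counts, and the correlations were not redone without it. The blocks are therefore used as a check of pairing in shoot and given with the alternatives. No block was run for the fit to both tissues. Precision is limited by 3 libraries per group, and floors of 3 counts cover counting error only. The low-count member AT1G54950 had at most 33 counts in a root library at 7 h.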

Additional observations from a re-analysis of the deposited data

Results flagged for a closer look

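The SA effect in root differed between 24 h and 7 h, by the test of that difference, in 21 members. Over all genes, 18.1% had a more positive effect at 24 h and 18.5% a more negative one. The difference, as the log2 fold change at 24 h minus that at 7 h, was 3.78 for PMT6, 3.34 for CYP71B2, 3.33 for AT3G14060, 3.04 for PHT1;9, 2.98 for AT4G39675, 2.9 for CKX4, 2.6 for FRO5 and 2.59 for LAC7. For the low-count gene AT1G54950 it was 2.47, for AT3G46700 2.33, for AT1G10340 2.19, for AT1G30730 2.12, for AT2G34610 2.03 and for AT2G34350 1.91. It was 1.85 for AT3G21670, 1.73 for RD26, 1.6 for GH3.17, 1.54 for SNRK2.9, 1.48 for NAC1, 1.37 for AT2G19060 and 1.08 for AT1G30760. These differences also hold changes in the control roots. Controls were higher at 7 h than at 24 h by 1.38 for RD26 and 0.86 for NAC1 on the log2 scale. Among all members, 6 were higher and 8 lower in control roots at 7 h than at 24 h. These counts are near the shares of all genes, 30.8% higher and 31.2% lower.

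The SA effect differed between root and shoot at 7 h in 5 of 22 members. Over all genes it was more positive in root for 12.5% and more negative for 10.9%. The count of members was near these shares and is no result about them. The root effect minus the shoot effect was -3.82 for PHT1;9, which had few counts at 7 h. It was -2.83 for AT1G10340, -2.23 for CKX4 and -1.48 for CYP71B2. For AT2G19060 it was 2.44, a fitted value that is no bound, since every SA shoot at 7 h held at most 3 counts of this gene. At 24 h the effect differed between the tissues in 12 members. Over all genes it was then more positive in root for 24.9% and more negative for 17%. The root effect minus the shoot effect was -3.24 for AT1G10340, the 1 member with a more negative effect in root. It was 2.73 for AT1G30760, 2.24 for AT2G19060, 2.12 for PMT6, 1.86 for AT2G34610, 1.63 for LAC7 and 1.57 for CYP71B2. It was 1.22 for AT3G14060, 1.12 for NAC1, 0.85 for GH3.17, 0.84 for AT3G46700 and 0.75 for SNRK2.9. The SA shoots at 24 h held 6, 2 and 5 counts of AT2G19060, and its shoot effect was not called (-0.8 ± 0.69, edgeR adjusted p = 0.321).

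In the control roots at 0 h, 1 of 22 members had a library far from the other 3: AT1G54950, at 1.51 CPM in 1 library. Chance gives such a library in about 1 of 20 groups. No comparison is made with the 0 h controls, but their spread enters the root fit.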

How the results depend on the processing

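The choice of genes moved most with the rule's pseudocount. With 0.1 CPM in place of 0.5 CPM the rule found 38 genes, the 22 among them, and with 1 CPM it found 15. With TMM-scaled totals it found 18, of which 16 were among the 22, and with a replicate left out 19 to 28.

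Of 310 recomputed counts of members called, 279 were within 1.5 times the reported count. With a replicate or library left out, the members higher at 7 h in SA roots were 0 to 2, those lower 11 to 15, those higher at 24 h 20 to 21, and those with a more positive SA effect at 24 h than at 7 h 20 to 21. In ABA roots the members lower were 3 to 6 at 1 h and 2 to 4 at 24 h. In SA shoots they were 1 to 7 at 2 h, 3 to 10 at 4 h and 2 to 3 at 24 h, and those higher were 0 to 3 at 4 h, 1 to 5 at 7 h and 4 to 10 at 24 h. The members with a more positive effect in root than shoot at 7 h were 0 to 1, and those with a more negative one at 24 h 1 to 2. In the fit to only the groups compared, 0 members were lower in SA shoots at 1 h, 1 was higher at 2 h and 6 were higher at 7 h, 2 were higher in SA roots at 7 h, and the root effect was more negative than the shoot effect in 7 members at 7 h and 2 at 24 h, the last also with DESeq2 size factors. Without the filter, 1 member was higher in SA shoots at 4 h. DESeq2 called 2 members higher in SA roots at 7 h.

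With the replicate block, 2 members were higher and 14 lower in SA roots at 7 h, the second being FRO5 (0.67, adjusted p = 0.0146). In shoot, where pairing was seen at all times but 7 h, the block gave 5 members higher at 7 h and moved no other count by over 1.5 times.

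Of 374 recomputed fold changes at 7 h and 24 h, 352 kept direction and call. Those of other sign were not called: AT3G21670 at 24 h, -0.013 without the filter, -0.11 to 0.14 with a replicate left out, -0.002 with the block and -0.004 with only the groups compared, and at 7 h, with a replicate left out, AT2G19060 (-0.14 to 0.19) and SNRK2.9 (-0.13 to 0.12). AT5G06570 was higher at 24 h without replicate 1 (0.41, adjusted p = 0.0426). The causes were not tested.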
